A study of Mus musculus with 8 samples.

Results

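Calcium-triggered release of transmitter from presynaptic vesicles depends on a set of protein families that are named alike, and their mRNAs were measured here in the ventral striatum and the prefrontal cortex of adult C57Bl6J males. The genes were taken by symbol: the synaptotagmins (Syt), synapsins (Syn), syntaxins (Stx), SNAP-25 family (Snap), vesicle-associated membrane proteins (Vamp), RIM proteins (Rims), Munc13 proteins (Unc13), complexins (Cplx), SV2 proteins (Sv2), Rab3 GTPases (Rab3) and syntaxin-binding proteins (Stxbp). A total of 72 symbols fitted these names among the 33885 symbols counted, and 68 of them had at least 50 counts summed over the 8 libraries. The 4 symbols below that minimum were Cplx4 with 48 counts, Syt8 with 21 counts, and Stx19 and Vamp3, which were listed at 0. The rule itself used symbols and summed counts and no difference between groups, but it was set with earlier results of these data known.

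The 8 libraries of total RNA formed 4 groups of 2. Nucleus accumbens (NAc) tissue came from mice that received cocaine (an intraperitoneal dose of 7.5 mg/kg) while exploring a conditioned place preference chamber and from mice that stayed in the home cage. Medial prefrontal cortex (mPFC) tissue came from mice that experienced social defeat by aggressive CD1 males and from home-cage mice. Tissue of exposed mice was dissected 15 min after the experience. All mice were of the same inbred strain and sex, and no mutation or transgene is named for any group. The labels do not say whether the libraries of a group came from separate animals, or whether home-cage mice gave both tissues, and a p-value here weighs a difference against the spread between these libraries alone, which may be technical. Replicate numbers in NAc come from the sample titles, and those in mPFC were given in the order of the samples and pair nothing.

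Vesicle release is carried by the SNARE complex. Vamp proteins on the vesicle zip together with syntaxin and SNAP-25 on the plasma membrane, Munc13 proteins help to assemble that complex and make vesicles ready for release, RIM proteins hold them at the active zone, and complexin and synaptotagmin make the last step depend on calcium. Synapsins keep a reserve of vesicles, Rab3 GTPases tie vesicles to RIM, and SV2 proteins are large vesicle glycoproteins. Most of these families have several paralogs, and neurons of striatum and cortex are known to use them in different mixtures. Many syntaxins, Vamps and syntaxin-binding proteins serve other membrane traffic, in all cell types.

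Depth ranged from 111901829 to 179479978 counts per library. Levels are given in CPM, counts scaled to a common library size (cpm of edgeR), with TMM factors taken over the 8 libraries. The tissue labels were held against marker genes: the dopamine receptor gene Drd2, a marker of striatal projection neurons, had 220.5 and 66.2 CPM in cocaine NAc and 278 and 58.3 CPM in home-cage NAc, against 2.97 and 2.47 CPM in defeat mPFC and 2.56 and 2.38 CPM in home-cage mPFC. The cortical vesicular glutamate transporter gene Slc17a7 had 588 and 906 CPM in cocaine NAc and 468 and 1048 CPM in home-cage NAc, against 1301 and 1157 CPM in defeat mPFC and 1289 and 1299.5 CPM in home-cage mPFC. Both NAc libraries numbered 2 therefore had lower Drd2 and higher Slc17a7 than both numbered 1, whichever the treatment. Over 15 striatal markers the summed level was 7190.3 and 3254 CPM in cocaine NAc and 8285 and 3004 CPM in home-cage NAc, against 1073 to 1196 CPM in mPFC. Over 12 cortical glutamatergic markers it was 1449.5 and 1992 CPM and 1280.4 and 2191 CPM in the same NAc groups, against 2984 to 3215 CPM in mPFC, and over 10 oligodendrocyte markers 1383 to 2599 CPM in NAc, against 1146 to 1535 CPM in mPFC. Over 8 astrocyte markers it was 2541 to 2783 CPM in NAc, against 3748 to 4013 CPM in mPFC. No gene of these 4 lists was at 0 in any library. On the cortical list Cux1 and Rorb went the other way from Slc17a7. Cux1 had 231 to 310 CPM in NAc, against 114 to 130 CPM in mPFC. Rorb had 91.8 to 132 CPM in NAc, against 82.3 to 86.1 CPM in mPFC. By fold change the other 10 were lower in NAc, in home-cage and in exposed mice. The part of this makeup in the results below was not tested, and in bulk tissue fewer cells of a type and less RNA per cell cannot be told apart.

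The 68 genes together took 1.34% and 1.40% of all counts in cocaine NAc and 1.31% and 1.44% in home-cage NAc, against 1.77% and 1.74% in defeat mPFC and 1.77% and 1.73% in home-cage mPFC, so that every NAc library lay below every mPFC library. Levels between genes are compared per kilobase of annotated exon, as the mean CPM of the 8 libraries. On that scale the order was led by Syt1 with 268 CPM/kb, Syn1 with 206 and Snap25 with 199.8, and ended with Stx11 at 0.0224 CPM/kb. Per kilobase of the whole gene span, introns included, Vamp2 came first with 158 CPM/kb and Syt1 ranked 17, so the order between genes depends on which length is used. Whether reads in introns were counted is not given in the sources used here.

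**Figure D1:**
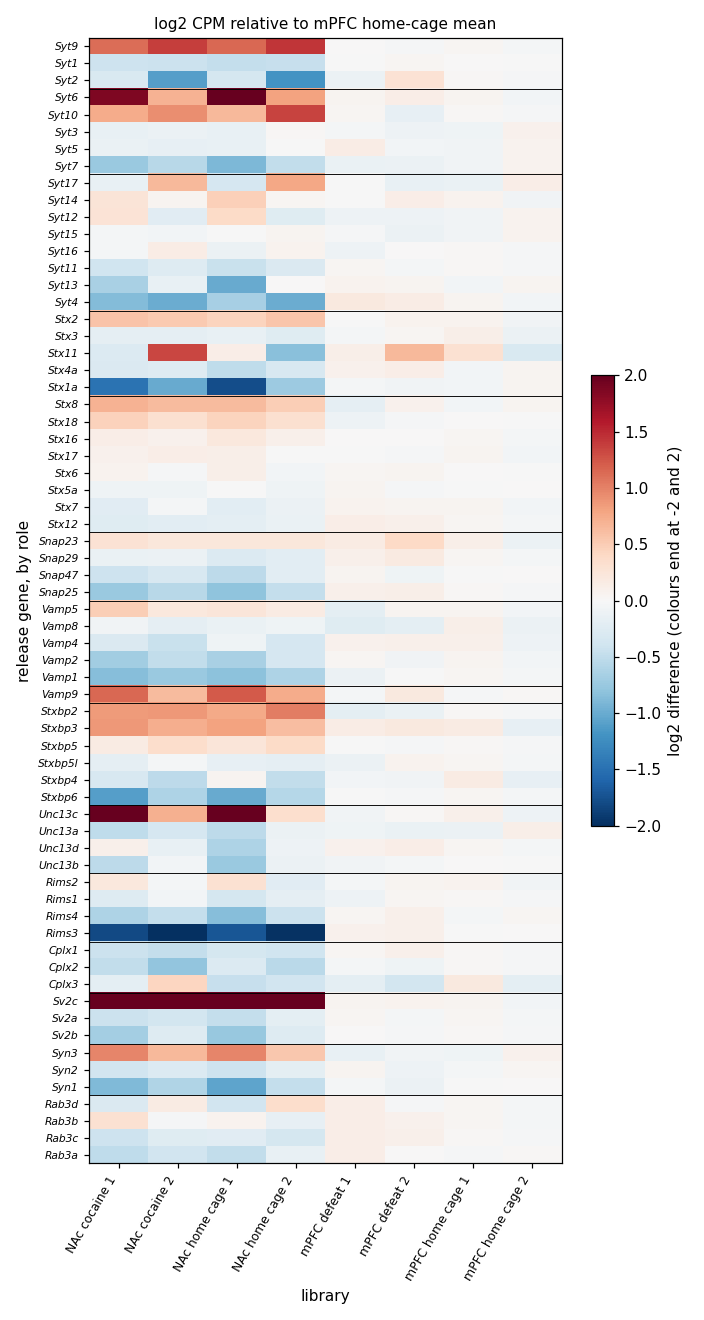
Log2 CPM of 66 of the 68 vesicle release genes (rows, by family) in each of the 8 libraries (columns, NAc left of mPFC), relative to the mean of the home-cage mPFC libraries; the colours end at -2 and 2. Sv2c is red and Rims3 blue in all 4 NAc libraries, and Unc13c and Syt6 are darkest in the NAc libraries numbered 1.

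The counting left a mark that touches several members. Of 771 protein-coding genes that lie wholly inside the span of another protein-coding gene, 769 (99.7%) were listed at 0 in all 8 libraries, against 2070 of 20630 other protein-coding genes (10.03%). Among those on the strand opposite to the other gene, 459 of 459 were at 0. Timp1, Timp4 and Timp3, which lie inside Syn1, Syn2 and Syn3, were at 0 in these tables, as was Vamp3, whose span overlaps that of Camta1. Reads from such genes and from their neighbours cannot be told apart here, so a 0 for Vamp3 says nothing of its expression. The values of Syn3 (1733 bp of exon shared with Timp3), Stx18 (574 bp with Nsg1), Syt6 (505 bp with Atg4a-ps), Unc13a (495 bp with Colgalt1), Snap47 (307 bp with Jmjd4) and Stx4a (124 bp with another gene) are uncertain for the same reason. Shared exon was not needed for a 0, as Timp1 shares 0 bp of exon with Syn1. Members with little or no shared exon are therefore uncertain too where their span overlaps a counted gene. Examples are Snap29 (60 bp with Pi4ka), Syn1 (9 bp with Araf) and Syt2 (0 bp with Ppp1r12b). Further members share exon with noncoding genes that are not among the counted symbols, such as Syt12 (950 bp), Syt4 (566 bp) and Syt7 (384 bp).

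The regional comparison asks which release genes differ between the tissues, and it was made in home-cage mice and again in exposed mice, with no library in common. In home-cage mice 8 members were higher and 5 lower in NAc than in mPFC (13 of 68, or 19.1%, at a Benjamini-Hochberg adjusted p under 0.05 by edgeR's quasi-likelihood test). Of all 18300 genes tested, 12.4% passed, 7.01% higher and 5.35% lower. Sv2c stood first by size, at 9.16-fold the mPFC level, and Rims3 was the lowest, with the mPFC level 3.59-fold that of NAc. In exposed mice 12 members were higher and 25 lower in NAc after cocaine than in mPFC after defeat (37 of 68, or 54.4%), against a background of 36.3% of 18362 genes, 19.2% higher and 17.1% lower. The members called lower (36.8%) were thus a larger share than in the background and those called higher (17.6%) about as large. All 13 genes called in home-cage mice were called in the same direction in exposed mice, which is 100% of the first list and 35.1% of the second, beside 95.1% and 32.2% for all genes tested in both. In the exposed groups treatment differs together with region.

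All 68 members passed the low-count filter of every comparison. Their median log2 difference was -0.21 in home-cage mice and -0.14 in exposed mice, beside 0.01 for all genes tested in each. All 4 NAc libraries lay below all 4 mPFC libraries in 27 members (39.7%, beside 22.5% of 18979 genes with at least 50 counts), and above them in 15 (22.1%, beside 23.9%). The other 26 overlapped. Leaving out an mPFC home-cage library left 0 genes called among all genes in the home-cage comparison, 0 members included, whereas leaving out the NAc home-cage library numbered 1 or 2 gave 36 or 47 members, with 29.6% or 42.9% of all genes called. In exposed mice the count was 42 or 50 members without the cocaine library numbered 1 or 2 (44% or 49.7% of all genes) and 6 or 10 without defeat replicate 1 or 2 (5.98% or 8.23% of all genes). In each of these fits the lone library of a group was assumed to vary like the other group. Other fits of all libraries called more members in home-cage mice, 27 with DESeq2's Wald test (15.2% of all genes) and 28 in a fit over all 8 libraries (24.8%). Both added Syt1, Syt6, Syt7, Syt10, Syt11, Snap25, Stx1a, Stx4a, Stx18, Vamp2, Rims4, Cplx1 and Syn1, so the home-cage results of these genes below, which missed the threshold, depend on the fit.

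**Figure D2:**
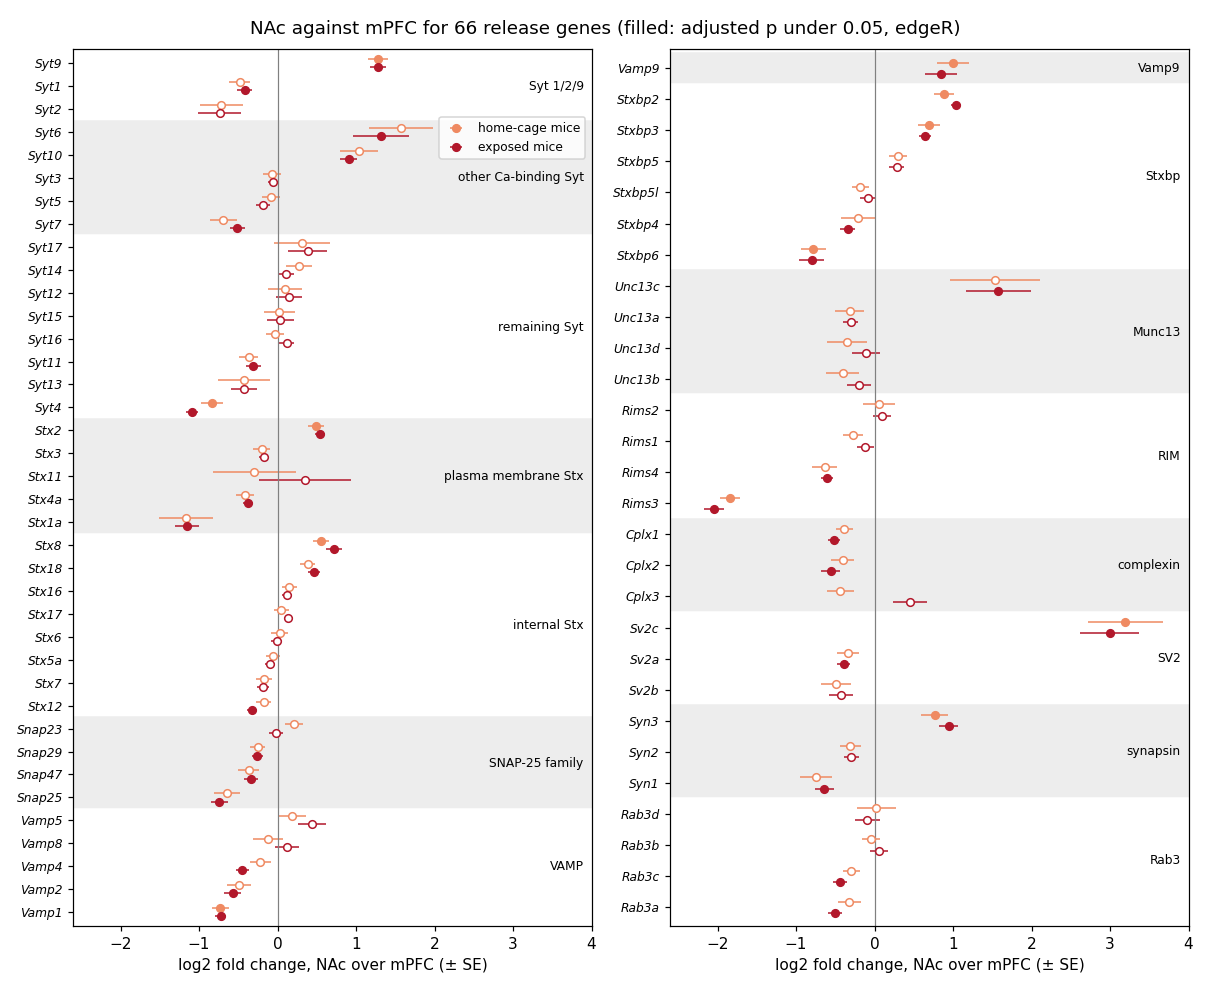
Log2 fold change of NAc over mPFC (points, with bars of 1 SE) for 66 genes by family, in home-cage mice (upper point) and in exposed mice (lower point); filled points had an adjusted p under 0.05. Sv2c is the highest and Rims3 the lowest in both comparisons, and most families hold genes on both sides of 0.

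The promoters of 4 genes called in both regional comparisons are shown to set genes that differ in opposite directions side by side. Syt4 was left out of this choice, although its home-cage log2 difference (-0.83) was larger in size than that of Stxbp6 (-0.78). The 4 genes had the 2 largest differences in each direction among the other called genes with a single promoter in the RefSeq table (GRCm38.p6). Each promoter runs from 250 bases before to 50 bases after the annotated start, 5′ to 3′ on the gene's strand. Capitals mark GC boxes, the letters GGGCGG on either strand, which is the motif bound by Sp1-family factors. Sv2c (chr13:96132528-96132827 on the minus strand) and Syt9 (chr7:107370540-107370839 on the plus strand) were higher in NAc, and Rims3 (chr4:120854549-120854848 on the plus strand) and Stxbp6 (chr12:45074434-45074733 on the minus strand) were lower.
Sv2c: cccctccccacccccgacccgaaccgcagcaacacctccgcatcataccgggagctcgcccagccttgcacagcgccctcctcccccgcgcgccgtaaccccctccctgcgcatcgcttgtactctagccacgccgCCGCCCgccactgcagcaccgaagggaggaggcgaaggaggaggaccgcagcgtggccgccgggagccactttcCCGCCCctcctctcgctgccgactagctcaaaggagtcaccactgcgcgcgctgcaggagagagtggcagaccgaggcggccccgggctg
Syt9: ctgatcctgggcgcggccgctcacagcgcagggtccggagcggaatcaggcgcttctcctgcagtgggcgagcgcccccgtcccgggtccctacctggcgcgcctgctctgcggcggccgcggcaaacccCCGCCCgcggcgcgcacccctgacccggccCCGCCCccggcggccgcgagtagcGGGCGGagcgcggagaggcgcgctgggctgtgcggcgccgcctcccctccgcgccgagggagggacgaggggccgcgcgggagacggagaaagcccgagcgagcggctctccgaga
Rims3: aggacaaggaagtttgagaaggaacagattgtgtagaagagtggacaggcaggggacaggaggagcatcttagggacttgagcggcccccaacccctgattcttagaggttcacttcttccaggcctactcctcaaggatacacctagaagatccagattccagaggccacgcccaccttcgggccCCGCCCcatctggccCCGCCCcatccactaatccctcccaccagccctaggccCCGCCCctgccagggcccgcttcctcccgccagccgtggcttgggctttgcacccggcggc
Stxbp6: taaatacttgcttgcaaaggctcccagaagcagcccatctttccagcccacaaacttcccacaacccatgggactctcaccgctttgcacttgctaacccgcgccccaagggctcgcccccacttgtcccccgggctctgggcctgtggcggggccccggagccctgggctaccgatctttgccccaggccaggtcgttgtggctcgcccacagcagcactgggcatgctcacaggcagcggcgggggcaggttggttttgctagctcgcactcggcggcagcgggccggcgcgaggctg

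Sv2c held 2 GC boxes, Syt9 and Rims3 held 3 each, and Stxbp6 held 0, so the motif did not separate the genes by direction. Their GC content was 71.7%, 79.3%, 62.3% and 66.3%. The searched TATA box (TATAAA), cyclic AMP response element (CRE, TGACGTCA) and AP-1 motif (TGANTCA), each read on both strands, gave 0 matches in these 4 windows. Over all members, 54 of 68 matched the table, with 68 promoters. Of these, 70.6% held a GC box, 7.35% a TATA box, 2.94% a CRE and 4.41% an AP-1 motif, beside 35.7%, 13.6%, 1.79% and 7.81% of 32851 promoters of all genes in the table. The median GC content was 62.5% in the members' promoters and 52.7% in all promoters. A match is a description of letters, and no overlap of these motifs with each other was removed.

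The SV2 proteins showed the widest split within a family. Sv2c, the paralog known for its presence in basal ganglia and the gene at chr13:95954594-96132577, had 275 and 124 CPM in cocaine NAc and 323 and 120.3 CPM in home-cage NAc, against 25.002 and 25.4 CPM in defeat mPFC and 24.97 and 23.1 CPM in home-cage mPFC (home cage: log2 fold change 3.19, SE 0.48, adjusted p = 0.0183). All 4 NAc libraries were above all 4 mPFC libraries, and in both treatments the library numbered 2 was far lower than the one numbered 1. Without the home-cage NAc library numbered 1 the regional fold was 4.98, and without the one numbered 2 it was 13.3. In exposed mice the fold was 7.99 (adjusted p = 0.00421), or 4.95 and 10.99 without the cocaine library numbered 1 and without the one numbered 2. Without defeat replicate 1 or 2 it missed the threshold (adjusted p = 0.059 and 0.0503). Sv2a, the most widely expressed paralog and the binding site of the drug levetiracetam, had 253 and 265 CPM in cocaine NAc and 246 and 297 CPM in home-cage NAc, against 352 and 333 CPM in defeat mPFC and 349.7 and 333 CPM in home-cage mPFC, and passed only in exposed mice (-0.34 and -0.39 on the log2 scale). Sv2b had 397 and 531 CPM in cocaine NAc and 374 and 531 CPM in home-cage NAc, against 634 and 625 CPM in defeat mPFC and 644 and 623 CPM in home-cage mPFC, and missed the threshold in both comparisons (adjusted p = 0.153 and 0.0732), though DESeq2's Wald test called it in exposed mice (adjusted p = 0.0194). The ratio of Sv2c to Sv2b counts within a library was 0.692 and 0.233 in cocaine NAc, 0.863 and 0.226 in home-cage NAc, 0.0394 and 0.0406 in defeat mPFC and 0.0388 and 0.0371 in home-cage mPFC.

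**Figure D3:**
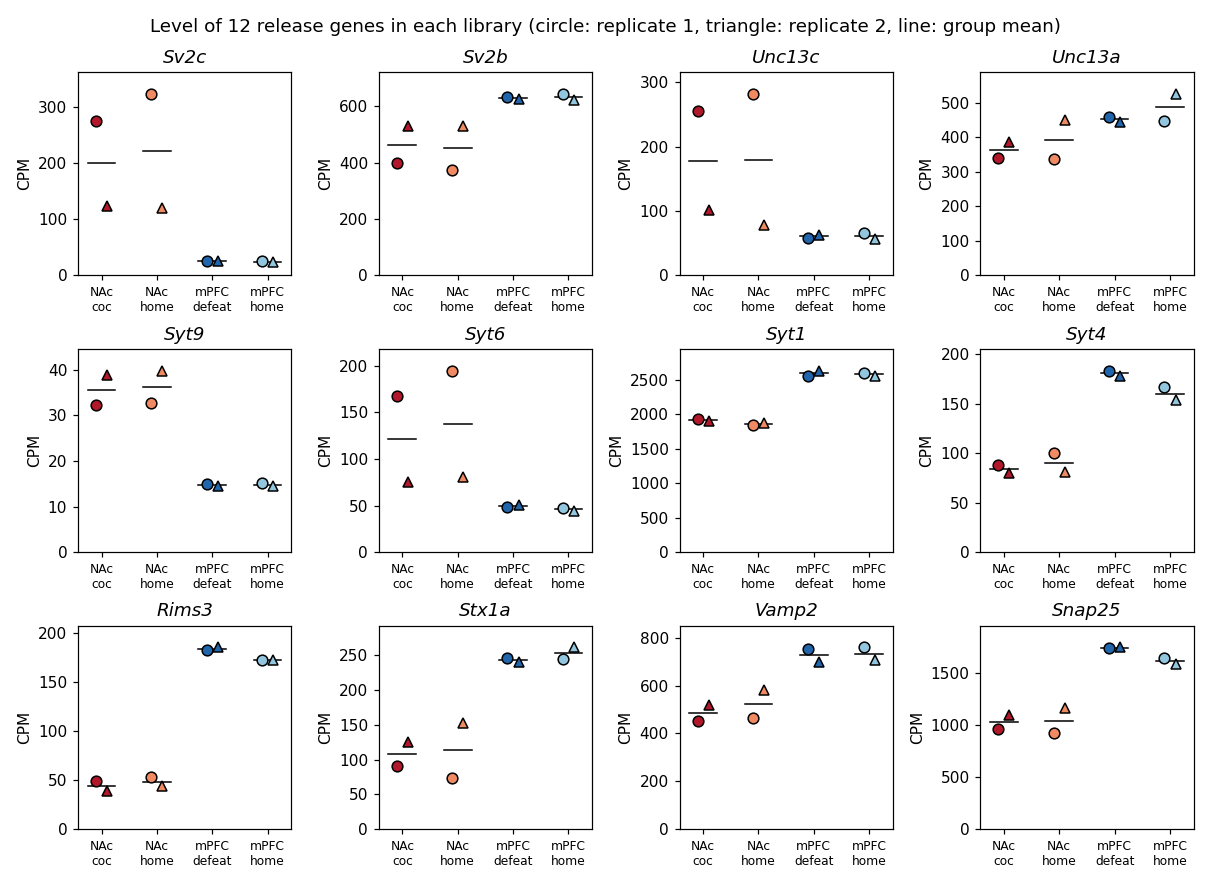
CPM of 12 vesicle release genes in each library, with NAc left of mPFC and the exposed group left of its home-cage group; circles are libraries numbered 1, triangles those numbered 2, and lines group means. Sv2c, Unc13c and Syt6 are high in both NAc libraries numbered 1, and Rims3 is low in all 4 NAc libraries.

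Among the calcium sensors, Syt1, Syt2 and Syt9 are the ones known to trigger fast release. Syt9, described in limbic and striatal neurons, had 32.2 and 38.9 CPM in cocaine NAc and 32.8 and 39.9 CPM in home-cage NAc, against 14.9 and 14.6 CPM in defeat mPFC and 15.2 and 14.5 CPM in home-cage mPFC. The 4 NAc values lay above the 4 mPFC values, with little spread inside mPFC, and the fold was 2.43 in home-cage mice and 2.43 in exposed mice (adjusted p = 0.00749 and 0.00143). Syt1, the main fast sensor of forebrain synapses, had 1930.2 and 1908 CPM in cocaine NAc and 1842 and 1867 CPM in home-cage NAc, against 2551 and 2633 CPM in defeat mPFC and 2593 and 2558 CPM in home-cage mPFC. It lay lower in all NAc libraries, and passed in exposed mice (-0.42, adjusted p = 0.0261) but not in home-cage mice (-0.48, adjusted p = 0.0737). Syt2, the fast sensor of the brainstem and of some inhibitory neurons, had 17.8 and 10.3 CPM in cocaine NAc and 17.4 and 9.61 CPM in home-cage NAc, against 20.4 and 26.9 CPM in defeat mPFC and 22.5 and 21.6 CPM in home-cage mPFC, with log2 differences of -0.72 and -0.74 that did not pass. Counts of Syt9 per count of Syt1 came to 0.0167 and 0.0204 in cocaine NAc, 0.0178 and 0.0214 in home-cage NAc, 0.00583 and 0.00555 in defeat mPFC and 0.00586 and 0.00568 in home-cage mPFC.

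Of the other calcium-binding synaptotagmins, Syt6 and Syt10 were higher in NAc in exposed mice and Syt7 was lower. Syt6 had 168 and 74.8 CPM in cocaine NAc and 195 and 80.6 CPM in home-cage NAc, against 48.01 and 50.3 CPM in defeat mPFC and 47.9 and 44.2 CPM in home-cage mPFC, so all NAc libraries were above mPFC, those numbered 1 by more (exposed: log2 fold change 1.32, SE 0.36, adjusted p = 0.0366; home cage: 1.57, adjusted p = 0.0653). Without the cocaine library numbered 1 its fold in exposed mice was 1.54, and without the one numbered 2 it was 3.44. Without defeat replicate 1 or 2 the fold was 2.44 or 2.54. The exposed call of Syt6 depended on the fit, as edgeR over all 8 libraries missed the threshold (adjusted p = 0.0692). Syt10, known in the mouse olfactory bulb for release of insulin-like growth factor, had 19.6 and 22.3 CPM in cocaine NAc and 18.3 and 30.02 CPM in home-cage NAc, against 12.1 and 10.5 CPM in defeat mPFC and 11.9 and 11.5 CPM in home-cage mPFC (exposed: 0.91, adjusted p = 0.00373). Syt7, a slow sensor for asynchronous release and facilitation, had 374 and 425 CPM in cocaine NAc and 336 and 442 CPM in home-cage NAc, against 572 and 575 CPM in defeat mPFC and 593 and 656 CPM in home-cage mPFC (exposed: -0.51, adjusted p = 0.0133). Syt10 and Syt7 did not overlap between regions either, and their home-cage values just missed the threshold (adjusted p = 0.0519 and 0.0605). Syt3 (-0.07 and -0.06) and Syt5 (-0.08 and -0.18) did not pass in either comparison.

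The remaining synaptotagmins bind calcium weakly or not at all, or are little studied. Syt4, found on dense-core vesicles and known in rats as a gene that neuronal activity induces, had 88.04 and 80.5 CPM in cocaine NAc and 101 and 80.6 CPM in home-cage NAc, against 184 and 178 CPM in defeat mPFC and 167 and 154 CPM in home-cage mPFC. The regions did not overlap, and Syt4 was lower in NAc in home-cage mice (log2 fold change -0.83, SE 0.14, adjusted p = 0.0249) and in exposed mice (-1.09, adjusted p = 0.00124). Syt11 was lower in exposed mice only by the threshold (-0.31, adjusted p = 0.0488; home cage -0.37, adjusted p = 0.111). Syt12, Syt13, Syt14, Syt15, Syt16 and Syt17 did not pass, with log2 differences in home-cage mice between -0.43 (Syt13) and 0.31 (Syt17).

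Snap25, Stx1a, Vamp1 and Vamp2, SNARE genes of the synaptic fusion complex, were lower in NAc in exposed mice. Snap25 had 963 and 1098 CPM in cocaine NAc and 919.9 and 1164 CPM in home-cage NAc, against 1734 and 1744 CPM in defeat mPFC and 1645 and 1585 CPM in home-cage mPFC. Stx1a, the plasma membrane syntaxin at chr5:135023482-135051100, had 90.9 and 125 CPM in cocaine NAc and 73.9 and 153 CPM in home-cage NAc, against 246 and 239.99 CPM in defeat mPFC and 244 and 261 CPM in home-cage mPFC. In both genes every NAc library lay below every mPFC library. Snap25 (-0.74, adjusted p = 0.00638) and Stx1a (-1.16, adjusted p = 0.00519) passed in exposed mice, and their home-cage values were -0.64 (adjusted p = 0.064) and -1.17 (adjusted p = 0.0847). DESeq2's Wald test called both in home-cage mice (adjusted p = 0.00196 and 0.00254). Vamp2, the main vesicle SNARE of forebrain, had 452 and 519 CPM in cocaine NAc and 465 and 580.5 CPM in home-cage NAc, against 753 and 700.4 CPM in defeat mPFC and 759.8 and 706 CPM in home-cage mPFC, and passed in exposed mice (-0.57, adjusted p = 0.0127). Vamp1, its paralog, had 25.3 and 27.4 CPM in cocaine NAc and 25.9 and 30.003 CPM in home-cage NAc, against 42.3 and 45.6 CPM in defeat mPFC and 47.4 and 44.6 CPM in home-cage mPFC and was lower in NAc in both comparisons (-0.73, adjusted p = 0.0193, and -0.73, adjusted p = 0.00249).

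Other members of the syntaxin, Snap and Vamp families, many of which serve other membrane traffic, went both ways. Stx2 and Stx8, a plasma membrane and a late endosomal syntaxin, were higher in NAc in both comparisons, with 29.3 and 28.6 CPM in cocaine NAc and 27.1 and 28.97 CPM in home-cage NAc, against 19.6 and 20.7 CPM in defeat mPFC and 20.8 and 18.9 CPM in home-cage mPFC for Stx2 and log2 differences of 0.55 and 0.72 for Stx8. Stx18, a syntaxin of the endoplasmic reticulum, was higher in exposed mice (0.47). Vamp9 was higher in both (0.998 and 0.85), at only 5.203 and 3.64 CPM in cocaine NAc, 5.497 and 3.901 CPM in home-cage NAc, 2.28 and 2.67 CPM in defeat mPFC and 2.299 and 2.38 CPM in home-cage mPFC. Lower in exposed mice were Stx4a (-0.38), Stx12 of recycling endosomes (-0.33), Vamp4 of the Golgi and endosomes (-0.45), Snap29 (-0.26) and Snap47 (-0.34). Stx3, Stx5a, Stx6, Stx7, Stx11, Stx16, Stx17, Snap23, Vamp5 and Vamp8 did not pass in either comparison. Stx11, known from immune cells, had no more than 0.196 CPM in any library.

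Of the syntaxin-binding proteins, Stxbp2 and Stxbp3, known mainly from secretion outside neurons, were higher in NAc in both comparisons. Stxbp2 had 34.6 and 35.1 CPM in cocaine NAc and 32.3 and 38.96 CPM in home-cage NAc, against 16.7 and 17.5 CPM in defeat mPFC and 19.4 and 18.9 CPM in home-cage mPFC, without overlap, at 1.85-fold in home-cage mice (adjusted p = 0.0154). Stxbp3 differed by 0.70 and 0.64. Stxbp6 (amisyn), which binds syntaxin through a Vamp-like domain, had 35.5 and 49.6 CPM in cocaine NAc and 37.8 and 51.2 CPM in home-cage NAc, against 75.2 and 74.5 CPM in defeat mPFC and 77.9 and 73.9 CPM in home-cage mPFC and was lower in both (-0.78, adjusted p = 0.0408, and -0.80, adjusted p = 0.014). Stxbp4 was lower in exposed mice (-0.34), and the tomosyn genes Stxbp5 (0.30 and 0.28) and Stxbp5l (-0.18 and -0.08), whose proteins hold back SNARE assembly, did not pass.

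Priming and active zone genes also divided by paralog. Unc13c (Munc13-3), best known from cerebellum and lying at chr9:73479422-73968966, had 256 and 101 CPM in cocaine NAc and 283 and 77.8 CPM in home-cage NAc, against 58.7 and 62.4 CPM in defeat mPFC and 66.4 and 57.3 CPM in home-cage mPFC. All NAc libraries were above mPFC, but those numbered 2 only slightly, and the gene passed in exposed mice (log2 fold change 1.57, SE 0.41, adjusted p = 0.0329) and not in home-cage mice (1.53, SE 0.57, adjusted p = 0.142). Without the cocaine library numbered 1 its fold in exposed mice was 1.68, and without the one numbered 2 it was 4.26. Without defeat replicate 1 or 2 the fold was 2.89 or 3.055. The exposed call depended on the fit, as edgeR over all 8 libraries missed the threshold (adjusted p = 0.091). Unc13a (Munc13-1), the main priming factor of forebrain, had 341 and 385 CPM in cocaine NAc and 337 and 449 CPM in home-cage NAc, against 459 and 445 CPM in defeat mPFC and 448 and 526 CPM in home-cage mPFC and missed the threshold (-0.32 and -0.30), as did Unc13b (-0.41 and -0.20) and Unc13d (-0.35 and -0.11).

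Rims3, a short RIM that lacks the Rab3- and Munc13-binding parts of the long ones, had 49.1 and 39.1 CPM in cocaine NAc and 52.8 and 43.8 CPM in home-cage NAc, against 182 and 185 CPM in defeat mPFC and 172 and 173 CPM in home-cage mPFC. This was the largest difference among the members called lower in NAc, at a log2 difference of -1.84 (SE 0.13, adjusted p = 0.00362) in home-cage mice and -2.05 (adjusted p = 0.000785) in exposed mice. Rims4, the other short RIM, had 84.8 and 93.3 CPM in cocaine NAc and 71.8 and 96.2 CPM in home-cage NAc, against 134 and 139 CPM in defeat mPFC and 127 and 133 CPM in home-cage mPFC and passed in exposed mice (-0.60, adjusted p = 0.00469; home cage -0.64, adjusted p = 0.064). The long RIMs did not pass: Rims1 had 670.01 and 774 CPM in cocaine NAc and 628 and 713 CPM in home-cage NAc, against 752 and 829 CPM in defeat mPFC and 814 and 794 CPM in home-cage mPFC, and Rims2 differed by 0.06 and 0.10.

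Complexins 1 and 2, which bind the assembled SNARE complex, were lower in exposed NAc. Cplx1 had 214 and 208 CPM in cocaine NAc and 226 and 219 CPM in home-cage NAc, against 298 and 311 CPM in defeat mPFC and 294 and 283 CPM in home-cage mPFC, and Cplx2 had 646 and 525 CPM in cocaine NAc and 756 and 626 CPM in home-cage NAc, against 887 and 855 CPM in defeat mPFC and 927 and 894 CPM in home-cage mPFC. Neither overlapped between regions, and their exposed values of -0.51 and -0.56 passed (adjusted p = 0.00676 and 0.0211), while the home-cage values of -0.38 and -0.41 did not (adjusted p = 0.0757 and 0.125). Cplx3, known from retina and from deep cortical layers, differed by -0.44 in home-cage mice and 0.45 in exposed mice, in opposite directions and not past the threshold. Among synapsins, Syn3 was higher in NAc, with 185 and 148 CPM in cocaine NAc and 186 and 137 CPM in home-cage NAc, against 85.03 and 90.01 CPM in defeat mPFC and 89.2 and 99.7 CPM in home-cage mPFC (0.77, adjusted p = 0.0479, and 0.94, adjusted p = 0.00468). Syn1, with 469.6 and 569 CPM in cocaine NAc and 417 and 617 CPM in home-cage NAc, against 842 and 792 CPM in defeat mPFC and 862 and 862 CPM in home-cage mPFC, was lower in exposed mice (-0.64, adjusted p = 0.0127; home cage -0.75, adjusted p = 0.0773), and Syn2 did not pass (-0.31 and -0.29). Rab3a had 242 and 263 CPM in cocaine NAc and 244 and 309 CPM in home-cage NAc, against 377 and 344 CPM in defeat mPFC and 340.1 and 348 CPM in home-cage mPFC. Rab3a and Rab3c were lower in exposed mice (-0.50 and -0.44), and Rab3b and Rab3d did not pass (0.06 and -0.09).

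Ratios of paralogs within a library do not depend on its total count. The ratio of Unc13c to Unc13a counts was 0.752 and 0.262 in cocaine NAc, 0.839 and 0.173 in home-cage NAc, 0.128 and 0.140 in defeat mPFC and 0.148 and 0.109 in home-cage mPFC, and that of Syn3 to Syn1 was 0.395 and 0.260 in cocaine NAc, 0.446 and 0.222 in home-cage NAc, 0.101 and 0.114 in defeat mPFC and 0.103 and 0.116 in home-cage mPFC. Both ratios were higher in every NAc library than in every mPFC library, and lower in the NAc libraries numbered 2 than in those numbered 1. The ratio of Rims3 to Rims1 went the other way in region, at 0.0733 and 0.0505 in cocaine NAc, 0.0842 and 0.0614 in home-cage NAc, 0.242 and 0.224 in defeat mPFC and 0.211 and 0.218 in home-cage mPFC, with the regions far apart. The ratio of Vamp1 to Vamp2 came to 0.0561 and 0.0528 in cocaine NAc, 0.0556 and 0.0517 in home-cage NAc, 0.0562 and 0.0652 in defeat mPFC and 0.0623 and 0.0631 in home-cage mPFC. Every NAc library was below every mPFC library in that ratio too, but the nearest values nearly met. A ratio shows unequal change of its genes and not which of them changed.

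**Figure D4:**
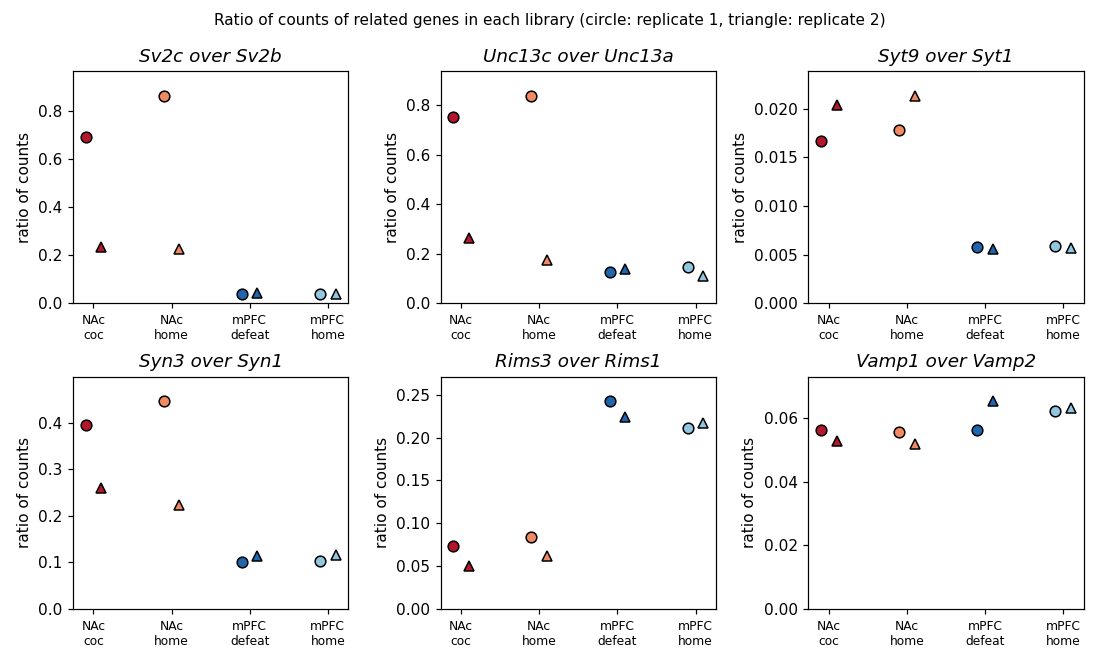
Ratios of paralog counts within each library (circles, number 1; triangles, number 2), NAc groups left of mPFC groups. The ratios of Sv2c to Sv2b and of Unc13c to Unc13a are highest in the NAc libraries numbered 1, and of the 6 ratios drawn the regions lie closest for Vamp1 to Vamp2.

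Other genes of the release machinery, from a list of 26 of which 25 were tested, gave 3 higher (12%) and 1 lower (4%) in home-cage NAc, beside 7.01% and 5.35% of all genes, and 5 higher (20%) and 9 lower (36%) in exposed NAc, beside 19.2% and 17.1%. Doc2b, a high-affinity calcium sensor, had 124 and 98.4 CPM in cocaine NAc and 126 and 100.1 CPM in home-cage NAc, against 18.1 and 15.5 CPM in defeat mPFC and 15.4 and 17.8 CPM in home-cage mPFC (2.76, adjusted p = 0.00245). Erc2, an active zone scaffold, differed by 0.98 (adjusted p = 0.0126) and Ppfia1, a liprin, by 0.45 (adjusted p = 0.0387). The gene that was lower was Rph3a, a Rab3 effector, with 209.998 and 283 CPM in cocaine NAc and 185 and 279 CPM in home-cage NAc, against 555 and 541 CPM in defeat mPFC and 541 and 582 CPM in home-cage mPFC (-1.28, adjusted p = 0.0249). The list's median log2 difference was -0.06 in home-cage mice, beside 0.01 for all genes. Of 22 listed genes of the vesicle membrane and of vesicle recycling, 20 were tested, and 0 were higher and 1 lower (5%) in home-cage NAc, with 0 higher and 10 lower (50%) in exposed NAc, beside the same shares of all genes. The home-cage call was Snap91, a clathrin adaptor (-0.60, adjusted p = 0.0479), and Syngr1, a vesicle membrane protein, had the largest called difference of exposed mice (-0.81, adjusted p = 0.00617). That list's medians were -0.30 and -0.34.

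Within NAc, the libraries numbered 1 were compared with those numbered 2, with treatment as a covariate. The labels do not say what the number marks, and the comparison was made because an earlier look at these data had shown the libraries to differ by it. Members called were 26 of 68 (38.2%), 13 higher and 13 lower in number 1, beside 18.8% of 18418 genes, 9.67% higher and 9.16% lower. The fit has 1 residual degree of freedom. Unc13c was 3.04-fold, Sv2c 2.45-fold, Syt6 2.34-fold and Syt2 1.77-fold the level of number 2, and the other genes higher in number 1 were Syt12, Vamp9, Rims2, Syn3, Stxbp4, Syt14, Rims3, Cplx2 and Rab3b, with log2 differences down to 0.29. Lower in number 1 were Syt17 (-0.95, adjusted p = 1.99e-06), Syt13 (-0.76), Stx1a (-0.75), Rab3d (-0.59), Unc13b (-0.54), Sv2b, Stxbp6, Syt10, Syn1, Unc13a, Syt7, Rims4 and Syt9 (the smallest difference being -0.27). Calls were lost for Stx1a, Rims4 and Syt9 with DESeq2's Wald test (adjusted p = 0.108, 0.0753 and 0.0759) and for Cplx2, Rab3b, Rims4, Stxbp4, Syt7 and Unc13a without the treatment covariate (adjusted p = 0.0511 to 0.123). Drd2 differed by 1.998 and Slc17a7 by -0.89 between the numbers. All 15 striatal markers and all 10 oligodendrocyte markers were higher in number 1 (medians 1.60 and 0.49), while 10 of 12 cortical glutamatergic markers were lower (median -0.81). Most of the 13 rapid immediate early genes were lower in number 1 as well (median -0.33). The part of these markers in the members' differences was not tested.

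Set against mPFC, the NAc libraries numbered 2 lay between number 1 and mPFC in 25 members (36.8%, beside 21.7% of 18979 genes), above both in 7 (10.3%, beside 9.28%) and below both in 8 (11.8%, beside 6.73%). In 28 members the sets of values overlapped. Sv2c, Unc13c and Syt6 were of the first kind, and so was Stx1a in the other direction. Syt17, a C2-domain protein at chr7:118380717-118448222, was above both, with 91.9 and 159 CPM in cocaine NAc and 80.8 and 175 CPM in home-cage NAc, against 102 and 92.4 CPM in defeat mPFC and 93.1 and 112 CPM in home-cage mPFC. Syt10 and Syt9 were also above both. Syt2, Syt4 and Rims3 were below both, so that for these genes number 2 lay farther from mPFC than number 1.

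After cocaine, 0 of 68 members passed in NAc, as did 0 of all 18418 genes tested (0%, with 211 genes, or 1.15%, at an unadjusted p under 0.05 and 0 members among them). This edgeR fit had no term for the library number, by which the NAc libraries differed. With the number as a block, 33 genes were higher and 5 lower, with 0 members. At an unadjusted p under 0.05 there were then 1307 genes and 4 members. DESeq2's Wald test also called 0 members. Without the block, the members' log2 fold changes had a median of -0.01, as for all genes. The cocaine pair exceeded the home-cage pair without overlap in 5 members (7.35%, beside 11.2% of all genes) and was under it in 4 (5.88%, beside 13.2%). Over the fusion machinery the log2 fold changes were Syt1 (0.06), Syn1 (0.01), Stx1a (-0.06), Snap25 (-0.01), Vamp1 (-0.08), Vamp2 (-0.10), Rims1 (0.11) and Unc13a (-0.11), all with adjusted p = 1. For the vesicle and regulatory proteins they were Cplx1 (-0.07), Cplx2 (-0.23), Sv2a (-0.06), Sv2b (0.04), Sv2c (-0.15), Rab3a (-0.13) and Syt4 (-0.10), likewise at adjusted p = 1. In Sv2c the libraries of a group differed far more than the groups did, and its SE was 0.61. In the same libraries all 13 rapid immediate early genes, which neurons switch on within minutes of activity, had positive fold changes with a median of 0.75, and 0 of them passed. Npas4 had 44.5 and 49.6 CPM after cocaine and 12.6 and 16.8 CPM in home-cage NAc.

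The members with the smallest p-values under cocaine were Cplx3, Snap29, Stx11, Stx4a and Rab3b among positive and Cplx2, Vamp4, Stxbp4, Rab3a and Syt3 among negative fold changes. Cplx3 had 5.103 and 7.86 CPM after cocaine and 4.24 and 4.48 CPM in home-cage NAc (log2 fold change 0.58, SE 0.24, unadjusted p = 0.0643 and adjusted p = 1 by edgeR). The groups did not overlap, and the cocaine library numbered 2 was the highest of the 4. The other genes ranged from -0.23 for Cplx2 to 0.99 for Stx11, a gene with 9 and 28 counts after cocaine and 15 and 6 counts in home-cage NAc.

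After social defeat, 0 of 68 members passed in mPFC, beside 127 of 18027 genes (0.704%, with 99 or 0.549% higher and 28 or 0.155% lower). DESeq2's Wald test also called 0 members. At an unadjusted p under 0.05 there were 4 members, beside 1288 genes (7.14%). The members' median was -0.01. The defeat pair exceeded the home-cage pair without overlap in 16 members (23.5%, beside 18.3% of all genes) and was under it in 9 (13.2%, beside 15.8%). In these libraries all 13 rapid immediate early genes were higher after defeat, with a median log2 fold change of 1.66. Fos had 39.8 and 41.3 CPM after defeat and 8.89 and 10.1 CPM in home-cage mPFC (adjusted p = 2.43e-28).

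Snap23, the widely expressed relative of Snap25, had 18.6 and 21.8 CPM after defeat and 17.9 and 15.2 CPM in home-cage mPFC (log2 fold change 0.27, SE 0.09, unadjusted p = 0.00345, adjusted p = 0.217 by edgeR). The groups did not overlap, but libraries within a group differed by more than the gap between the groups. Without home-cage replicate 1 the gene passed (adjusted p = 0.00493), and over the other fits that left out a library its adjusted p was 0.148 to 0.9999. Cplx3 had 5.06 and 4.51 CPM after defeat and 6.65 and 5.09 CPM in home-cage mPFC (-0.31, unadjusted p = 0.0099, adjusted p = 0.379). It passed without home-cage replicate 2 (adjusted p = 0.0119), with 0.454 to 0.9999 in the other such fits. Syt4 had 184 and 178 CPM and 167 and 154 CPM in the same groups (0.16, adjusted p = 0.64), and Stxbp2 16.7 and 17.5 CPM and 19.4 and 18.9 CPM (-0.18, adjusted p = 0.669). Both were without overlap.

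For the core genes the log2 fold changes after defeat were Syt1 (0.000), Syn1 (-0.09), Stx1a (-0.07), Snap25 (0.10), Vamp1 (-0.07), Vamp2 (-0.02), Rims1 (-0.03) and Unc13a (-0.12). They were Cplx1 (0.07), Cplx2 (-0.07), Sv2a (-0.002), Sv2b (-0.02), Sv2c (0.06) and Rab3a (0.06) for complexins, SV2 and Rab3a. The SEs of these 14 genes lay between 0.078 and 0.083 on the log2 scale and 0 of them had an unadjusted p under 0.05. Other genes with small p-values were Stxbp3 (0.15), Snap29 (0.13), Rab3c (0.11), Syt7 (-0.13), Syn3 (-0.12) and Vamp8 (-0.24), all with adjusted p above 0.8. On the lists of other release genes and of vesicle membrane and recycling genes, 0 of 25 and 0 of 20 tested genes passed in either treatment comparison.

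**Figure D5:**
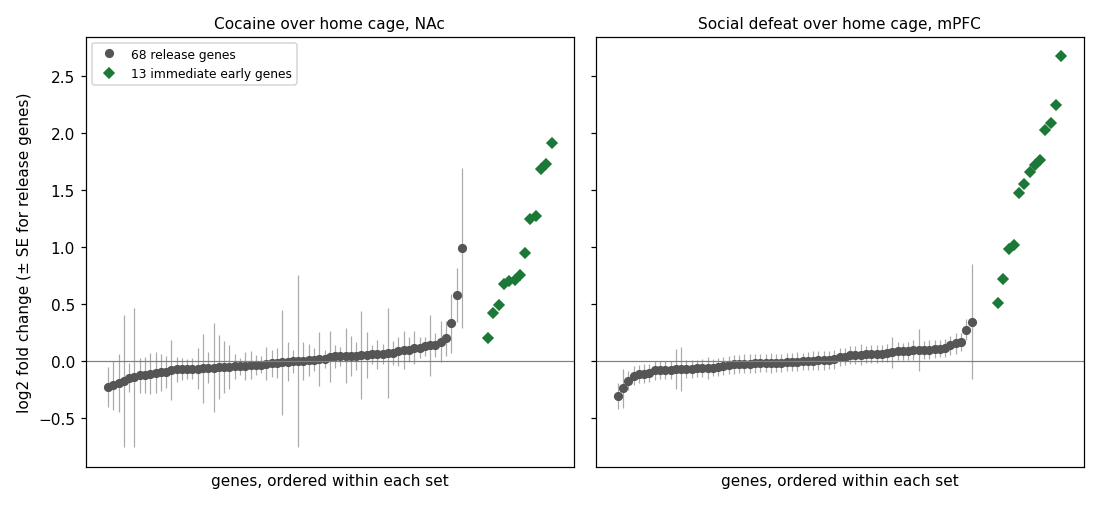
Log2 fold changes of the vesicle release genes after cocaine in NAc and after social defeat in mPFC, with the rapid immediate early genes of the same libraries beside them. Most vesicle release genes lie near 0 in both comparisons, with Stx11 at 0.99 and Cplx3 at 0.58 after cocaine. All 13 immediate early genes lie above 0.

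The difference between the responses was tested over all 8 libraries as the cocaine response in NAc minus the defeat response in mPFC, in which region and experience cannot be told apart. It called 0 members and 0 of 18783 genes (0%, with 415 genes, or 2.21%, at an unadjusted p under 0.05). The member with the smallest p was Cplx3, at 0.88 (SE 0.30, unadjusted p = 0.0222, adjusted p = 0.9999 by edgeR). The other positive values with small p were Stxbp2 (0.15), Vamp8 (0.23), Stx8 (0.16) and Vamp5 (0.24), and the negative ones Stx12 (-0.15), Syt4 (-0.26), Snap23 (-0.23), Vamp4 (-0.23) and Cplx1 (-0.14).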

How the data were processed

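Total RNA of 8 libraries was sequenced, and the deposited tables, 1 per region, hold raw counts per gene symbol. Per the submitters' processing notes, the authors used STAR 2.7.1a, featureCounts and the mm10 build to make these counts. Not given in the sources used here are the annotation and how counting treated strand, introns, overlaps and multiple alignments. The deposited counts were used as they stand.

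The genes and lists were chosen with earlier results of these data known. For each comparison, edgeR 4.0.16 (with limma 3.58.1, in R 4.3.3) was run over all genes with filterByExpr, TMM, estimateDisp, glmQLFit and glmQLFTest at default settings, and p-values were adjusted by Benjamini-Hochberg over all genes tested, with a threshold of 0.05. The SE of a log2 fold change is its absolute value divided by the square root of F. Comparisons between groups had no covariate, since 2 libraries per group allow few. An exact permutation test of 2 against 2 cannot give a two-sided p under 0.33. Libraries of a group differed beyond sampling noise (chi-square per degree of freedom 22.8 to 299), so none was counted as a duplicate.

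Named in each comparison are all members that pass if at most 30 do, otherwise the 15 largest in each direction, and, where under 5 pass, the 5 of smallest p among rising and among falling members. In the comparisons between groups Syt1, Syt4, Syn1, Stx1a, Snap25, Vamp1, Vamp2, Rims1, Unc13a, Cplx1, Cplx2, Sv2a, Sv2b, Sv2c and Rab3a are always named. The single-gene results of 2 members are not reported here, and these members are included in counts, medians and sums. Other members named in the regional comparisons complete a family. Coordinates and lengths are from GENCODE M21 (GRCm38, mm10) by symbol, and promoters from RefSeq (GRCm38.p6). Alternatives were DESeq2 1.42.0, its size factors in edgeR, no low-count filter, a fit over all libraries, a replicate block and leaving out each library. Tests were checked on simulated data with independent libraries and the same assumed spread for every gene. In the comparisons between groups that check held no difference by library number, so it does not cover the spread of the NAc libraries. Tables and plots used python 3.11.15, pandas 2.3.3 and matplotlib 3.10.9.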

Additional observations from a re-analysis of the deposited data

Results flagged for a closer look

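Cplx1, Cplx3 and Stx12 were each noted because both libraries of 1 experience moved away from home cage one way and both libraries of the other experience moved the other way. For Cplx1 the response to cocaine minus the response to defeat was -0.14 on the log2 scale (unadjusted p = 0.235), with 214 and 208 CPM after cocaine and 226 and 219 CPM in home-cage NAc, and 298 and 311 CPM after defeat and 294 and 283 CPM in home-cage mPFC. For Cplx3 it was 0.88 (unadjusted p = 0.0222). For Stx12 it was -0.15 (unadjusted p = 0.141), with 55.2 and 56.7 CPM and 56.97 and 59.4 CPM in cocaine and home-cage NAc, and 71.4 and 70.1 CPM and 67.2 and 63.7 CPM in defeat and home-cage mPFC. The adjusted p of each difference was 0.9999 by edgeR, so 0 of these 3 passed, and region and experience cannot be told apart.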

How the results depend on the processing

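All 68 members kept their direction in both regional comparisons under DESeq2's size factors, DESeq2's Wald test, no low-count filter and a fit over all 8 libraries, and scaling moved the median of all genes by less than 0.1 (log2). In home-cage mice DESeq2 called 2014 genes higher and 1619 lower in NAc, with 16 members lower, no filter gave 11 members lower, and the fit over all 8 libraries gave 2484 and 2170 genes, with 17 members lower. The 13 genes were all among those calls, and Syn3 alone missed the threshold under DESeq2's size factors (adjusted p = 0.0507). In exposed mice Syt6 missed it with DESeq2 (adjusted p = 0.0516), and Unc13c, Syt6, Snap47 and Stxbp4 in the fit over all 8 libraries (adjusted p = 0.091, 0.0692, 0.0588 and 0.203). There DESeq2 added Sv2b, Unc13a, Stxbp5, Syn2, Syt13 and Syt2 (adjusted p = 0.0135 to 0.0434). When each library was left out in turn, genes called in home-cage mice ranged from 0 to 4184 higher and 0 to 3864 lower (members 0 to 15 and 0 to 32), and in exposed mice from 641 to 4797 and 492 to 4537 (members 3 to 16 and 3 to 34). For the number of the NAc libraries, DESeq2 called 1179 genes higher and 1060 lower in number 1, and the calls it ended are given above. With a library left out no degree of freedom remained beside the treatment term, so the fits without that term, added after seeing the data, are given: without the home-cage library numbered 1 they called 773 and 534 genes (members 7 and 6), without the home-cage library numbered 2 812 and 685 (members 8 and 8), without the cocaine library numbered 1 1376 and 1369 (members 13 and 10), and without the cocaine library numbered 2 1390 and 1160 (members 7 and 15).

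After cocaine DESeq2 called 4 genes higher. NAc libraries of the same number deviated together (correlation over genes 0.609), but there are only 2 such pairs and the labels name no shared batch. With the replicate number as a block, 33 genes were higher and 5 lower, with 0 members. At an unadjusted p under 0.05 there were then 1307 genes and 4 members, Cplx3 (0.55), Rab3b (0.19), Cplx2 (-0.23) and Stxbp4 (-0.19), with adjusted p = 0.132 to 0.701, and Stx1a turned to 0.0125 on the log2 scale. After defeat DESeq2 called 87 genes higher and 7 lower, and the fit over all 8 libraries 5 higher and 0 lower. With each library left out, 50 to 166 genes were higher and 8 to 72 lower, with 0 to 1 member each way (Snap23 and Cplx3, given above). Sv2a turned to 0.000139 under DESeq2's size factors and 0.00173 with its Wald test, and Syt1 to -0.00198 in the fit over all 8 libraries. The difference between the responses gave 2 genes lower by DESeq2 and 0 to 1 with a library left out. Uncalled members that changed sign in such fits had these ranges on the log2 scale after cocaine: Rab3a (-0.2842 to 0.05037), Snap25 (-0.1656 to 0.1678), Stx11 (-0.004462 to 1.577), Stx1a (-0.4894 to 0.5533), Stxbp4 (-0.4674 to 0.08818), Sv2a (-0.1889 to 0.07953), Sv2b (-0.1848 to 0.3149), Sv2c (-0.8372 to 0.7403), Syn1 (-0.2378 to 0.3202), Syt3 (-0.1556 to 0.01461), Syt4 (-0.2513 to 0.07475), Unc13a (-0.2953 to 0.1122), Vamp1 (-0.1763 to 0.03012), Vamp2 (-0.248 to 0.06503). After defeat they were: Rab3a (-0.01108 to 0.1275), Rims1 (-0.1005 to 0.03072), Sv2a (-0.04612 to 0.04072), Sv2b (-0.04212 to 0.004717), Syt1 (-0.01816 to 0.01895), Unc13a (-0.2286 to 0.003648), Vamp2 (-0.07867 to 0.0345). Where a value changed, the cause was not tested.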

Other observations

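A CRE was found in the promoters of Stxbp3 and Syn1 and in no other member promoter of the table. After defeat these genes had log2 fold changes of 0.15 and -0.09, and after cocaine 0.10 and 0.01, and neither passed in either comparison. Syt2 per count of Syt1 was 0.00925 and 0.00541 in cocaine NAc, 0.00945 and 0.00515 in home-cage NAc, 0.00801 and 0.0102 in defeat mPFC and 0.0087 and 0.00846 in home-cage mPFC, so that it followed the number of the NAc libraries and not the region. Cplx1 per count of Cplx2 overlapped between regions, at 0.332 and 0.396 in cocaine NAc, 0.299 and 0.350 in home-cage NAc, 0.336 and 0.364 in defeat mPFC and 0.317 and 0.317 in home-cage mPFC.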
